A study of Mus musculus with 2 samples.

Results

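The cells described here were the Bglap-high, Col1a1-high cells of the mouse bone marrow, which carry the working label of mature osteoblasts. They were chosen from measured values: a cell was a member when Bglap and Bglap2 together held at least 50 of every 10000 of its unique molecular identifiers (UMIs, each 1 captured RNA molecule), when Col1a1 held at least 20 per 10000, when Ptprc and Cdh5 had at most 1 UMI each, and when Hba-a1 and Hbb-bs together stayed under 100 per 10000. In all, 74 of 7332 cells were members, 9 of 2750 in mouse 1 (0.327%, 95% Wilson interval 0.172 to 0.621) and 65 of 4582 in mouse 2 (1.42%, 1.11 to 1.80). These intervals cover counting error only, and no test was made of the shares because the measured genes set them.

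Both libraries belonged to a single group, so no treatment was compared. Each came from the femurs of 1 mouse of the genotype Cxcl12(GFP/+); Cxcl12-iCreER; R26R(tdTomato/+) at postnatal day 28, after tamoxifen at day 21. The Cxcl12(GFP) allele is a knock-in that places GFP at the Cxcl12 locus. Cxcl12-iCreER is a bacterial artificial chromosome transgene in which the Cxcl12 promoter region drives a tamoxifen-activated Cre, so that cells using the promoter at the time of tamoxifen, and their descendants, switch on tdTomato. Cells were sorted for GFP (1 protocol field of the labels names tdTomato instead) and the distal growth plates and proximal ends of the bones had been removed before digestion. The osteoblasts of this set are therefore those that came through a sort on a reticular cell gene and through the enzymes that freed marrow cells from bone.

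Osteoblasts are the cells that lay down bone. They secrete type I collagen as a triple helix that is hydroxylated, folded and exported through an enlarged secretory pathway, and they raise local phosphate so that mineral forms on it. Bglap encodes osteocalcin, the bone-matrix protein made by osteoblasts late in their differentiation, and cells that become buried in the matrix turn into osteocytes. Reticular cells of the marrow, the main source of the chemokine Cxcl12, can give rise to osteoblasts.

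The promoters of 2 marker genes are shown because Bglap chose the cells and Col11a2, a chain of the minor fibrillar collagen XI, later divided them. Each run is the 250 bases before the RefSeq start (build GRCm38.p6), 5′ to 3′ on the gene's own strand. In the Bglap window the capitals mark ACCACA, the RUNX motif (searched as TGTGGT or ACCACA, that is on both strands), and in the Col11a2 window they mark TAATTA, a homeodomain core that reads the same on both strands.
Bglap, chr3:88384467-88384716, minus strand: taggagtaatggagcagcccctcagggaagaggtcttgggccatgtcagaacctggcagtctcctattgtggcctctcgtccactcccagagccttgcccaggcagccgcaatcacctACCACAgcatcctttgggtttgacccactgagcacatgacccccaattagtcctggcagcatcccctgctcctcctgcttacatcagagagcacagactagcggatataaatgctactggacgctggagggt
Col11a2, chr17:34038888-34039137, plus strand: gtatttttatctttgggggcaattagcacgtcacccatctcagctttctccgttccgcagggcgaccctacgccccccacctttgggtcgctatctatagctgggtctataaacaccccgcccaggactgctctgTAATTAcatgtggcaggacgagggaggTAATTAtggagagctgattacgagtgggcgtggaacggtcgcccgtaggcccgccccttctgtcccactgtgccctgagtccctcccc
The RUNX letters began 132 bases before the Bglap start, and TAATTA began 115 and 88 bases before the Col11a2 start. Among all 32851 windows of this length, 14.0% held the RUNX letters and 4.84% held TAATTA, so such matches are frequent and are given as a description only. Bglap (GENCODE vM21, chromosome 3, 88383501 to 88384464) lies near Bglap2 (88377736 to 88378699), and the last 100 bases of both transcripts were identical, at 100 of 100 aligned positions. Their UMIs were therefore added, since 3′-end reads cannot divide them with certainty.

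The libraries held 54940400 and 88790688 UMIs. Members were deep cells, with medians of 24074 UMIs in mouse 1 (11669 to 104122) and 37336 in mouse 2 (12446 to 90923), against 9692 to 16508.5 in the classes used for comparison. The median share of mitochondrial UMIs was 4.20% and 3.38%. The libraries shared 7 cell barcodes. Taking the highest doublet scores of each library, 60 and 168 cells, marked 0 members. The automatic threshold on these scores was taken as not having worked, so the 0 is given as a description only.

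Among the members, Bglap and Bglap2 together ran from 73.7 per 10000 UMIs to 2273 in mouse 1, with a median of 791. In mouse 2 they ran from 50.02 to 2074, with a median of 172. The 2 mice overlapped throughout this range, but most members of mouse 1 lay in its upper part. Col1a1, the main chain of bone collagen, ran from 135 to 2470 per 10000 in mouse 1 (median 1379) and from 20.9 to 2258 in mouse 2 (median 957). The 3 genes together made up 27.8% and 16.8% of all member UMIs.

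The threshold fell in a gap in mouse 1 and in a run of cells in mouse 2. In mouse 1 the member just inside held 73.7 per 10000 and the nearest Col1a1-high cell outside 42.4. In mouse 2 those values were 50.02 and 47.6. Barcodes with 1 to 100 UMIs, which hold free RNA rather than cells, carried 14.6 and 15.7 Bglap and Bglap2 UMIs per 10000, below the threshold but above the medians of the comparison classes, which were at most 0.449. Their Col1a1 was 23.1 and 52.3 per 10000, above the limit of 20 in both mice. Col1a1-high cells under the Bglap threshold had Col1a1 medians of 50.2 and 52.0. The Col1a1 limit alone therefore did not clear the level of free RNA.

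The label held for some of the members and not for others. All 8 members of mouse 1 with a Bglap share of at least 144 per 10000 had Col11a2, at 61 to 216 UMIs a cell, whereas the remaining member had 0. In mouse 2, 41 of 65 members (63.1%) had at least 2 Col11a2 UMIs, in fact 9 to 294, and 24 had 0 or 1. No cell lay between 1 and 9, so the 2 kinds were apart in this gene. They are called Col11a2-positive and Col11a2-negative here, a division made after the values had been seen, and the members as a whole are called Bglap-high cells rather than mature osteoblasts.

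**Figure D1:**
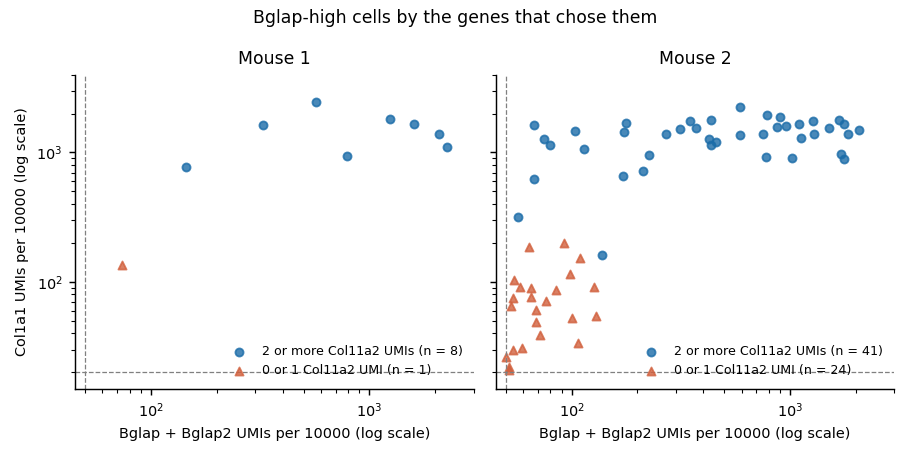
Each point is 1 Bglap-high cell of mouse 1 or mouse 2, with Bglap and Bglap2 per 10000 UMIs on the x axis and Col1a1 per 10000 UMIs on the y axis, both on log scales, the symbol telling cells with at least 2 Col11a2 UMIs from the others, and dashed lines at the thresholds. In mouse 2 the Col11a2-negative cells fill the lower left corner, between 50.02 and 129 on the x axis and between 20.9 and 200 on the y axis.

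The kinds also differed in the genes of the rule. In mouse 2, Col11a2-positive cells held a median of 459 Bglap and Bglap2 UMIs per 10000 (56.8 to 2074) and 1393 of Col1a1 (161 to 2258). Col11a2-negative cells held 66.9 (50.02 to 129) and 68.2 (20.9 to 200). Every one of the 30 cells with at least 200 Bglap and Bglap2 per 10000 was Col11a2-positive, as were 6 of 11 between 100 and 200 and 5 of 24 below. Depth and mitochondrial share moved with the kinds, with medians of 54738 against 22835.5 UMIs and 2.79% against 6.13%, and their part in the division was not tested.

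Several genes of bone formation were split between the kinds in mouse 2. Ifitm5, an osteoblast membrane protein, was seen in 41 of 41 Col11a2-positive cells, at a median of 8.73 per 10000, and in 1 of 24 Col11a2-negative cells as a single UMI. Cgref1 was seen in 41 of 41 and 2 of 24 cells. Smpd3, the sphingomyelinase needed for matrix mineralization, was seen in 41 of 41 and 6 of 24 cells, and Car3, a carbonic anhydrase, in 41 of 41 and 13 of 24. Of these 4 genes, Car3 alone was found in a majority of Col11a2-negative cells, at a median of 0.492 per 10000 against 15.3.

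Ibsp, which encodes bone sialoprotein and is a label marker, was present in 41 of 41 Col11a2-positive cells at 2.07 to 69.7 per 10000 and in 16 of 24 Col11a2-negative cells at up to 115. Its ranges overlapped, since a few Col11a2-negative cells were among the highest. Sp7, the osteoblast transcription factor, had medians of 1.52 and 0.635 per 10000, and Runx2, which acts earlier in the lineage, 1.15 and 2.78. Alkaline phosphatase, Alpl, had 10.2 and 19.3. Pth1r, the receptor for parathyroid hormone, was seen in every member of both kinds, at medians of 5.17 and 4.67 in mouse 2.

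Other genes were higher in the Col11a2-negative cells. Postn, a periosteal and preosteoblast matrix protein, had a median of 4.49 per 10000 and was seen in 24 of 24 of these cells, against 0.167 and 22 of 41. Limch1 was seen in 22 of 24 against 9 of 41. Omd, a keratan sulfate proteoglycan of bone, had medians of 11.7 against 2.35, and Wif1, a secreted Wnt inhibitor, 8.08 against 0.440. The single Col11a2-negative cell of mouse 1 carried 107 Ibsp, 260 Spp1, 38 Mmp13 and 11 Postn UMIs, 0 Ifitm5 and an 11.8% mitochondrial share. It was 1 cell, so the division rests on mouse 2.

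**Figure D2:**
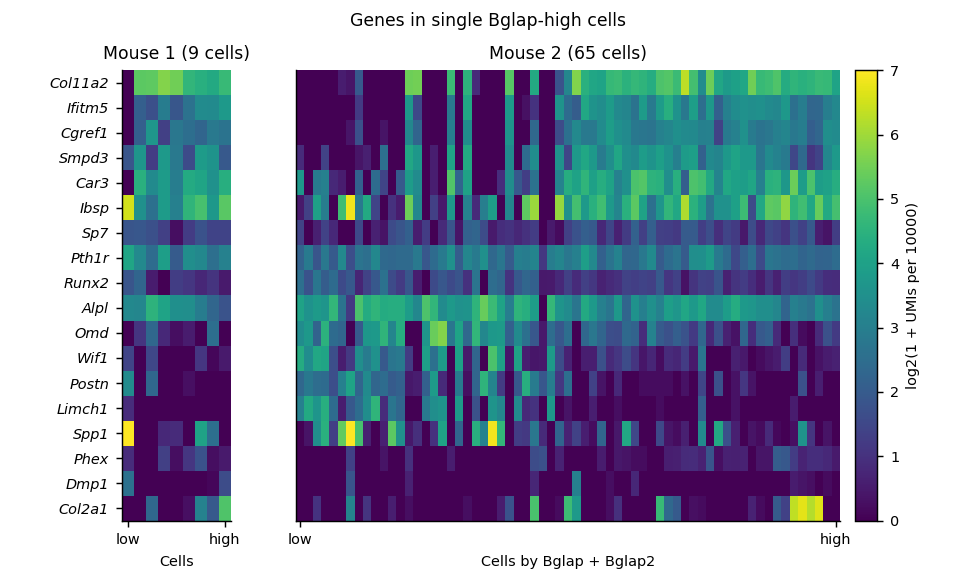
Rows are genes and columns are the single Bglap-high cells, ordered by Bglap and Bglap2 within each mouse, with colour giving log2 of 1 plus UMIs per 10000, capped at 7. Ifitm5, Cgref1 and Smpd3 are filled in the Col11a2-positive cells and nearly empty in the Col11a2-negative ones of mouse 2, where Postn and Limch1 are filled instead.

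Over the summed UMIs of mouse 2, Ifitm5 and Cgref1 followed Col11a2 among the genes that leaned most to the Col11a2-positive cells. Genes of matrix and secreted proteins and of a transporter were also among them. They are given here in CPM, the counts per 1000000 UMIs outside the genes of the rule, without further scaling, and were picked after their values had been seen. Cthrc1, a secreted collagen-repeat protein, stood at 2051 against 31.5, and Cpz, a carboxypeptidase that binds Wnt proteins, at 655 against 0. Col1a2, the second chain of type I collagen, stood at 114166 against 7682 and Col11a1 at 6928 against 649. Slc13a5, the citrate transporter, stood at 514 against 3.93.

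Genes that leaned the other way were Timp3, an inhibitor of matrix proteases (20.3 against 1098), Col8a1 (39.95 against 1084), Ogn (24.0 against 787), Gas6 (38.1 against 840), Col3a1 (301 against 3999) and the matrix glycoprotein tenascin C, Tnc (215 against 2439). Spp1, osteopontin, stood at 342 against 7534, but 1 cell with 3143 UMIs gave most of that sum. For Tnc, Col8a1, Col3a1 and Ogn the Col1a1-high Bglap-low cells of the same mouse stood at 1674, 1257, 3929 and 866, nearer to the Col11a2-negative than to the Col11a2-positive cells.

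Bglap and other genes varied together from cell to cell in mouse 2. Across its 65 members, Spearman's rho of Bglap and Bglap2 per 10000 was 0.74 with Col1a1, 0.604 with Col11a2, 0.628 with Ifitm5, -0.671 with Postn and -0.442 with Runx2. These are descriptions: the cells share 1 library, Bglap takes a share of the same total as the other genes, and depth rose with it. In the 9 cells of mouse 1 the value for Ifitm5 was 0.867 and that for Col11a2 was -0.15.

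Genes of osteocytes ranged from absent to present in many members. Sost, Mepe and Fgf23, made by buried osteocytes, had 0 UMIs in all members. Dmp1, a matrix phosphoprotein that comes on as cells are buried, was seen in 3 of 9 cells of mouse 1 and 10 of 65 of mouse 2. Phex, a protease of phosphate control, was seen in 7 of 9 and 32 of 65, of which 29 in mouse 2 were Col11a2-positive.

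Col2a1, the main collagen of cartilage, was seen in 5 of 9 members of mouse 1 and 27 of 65 of mouse 2. Sums were 705 and 1268 CPM on the same unscaled basis, but 4 cells in each mouse held 99.4% and 79.0% of them, and 4 and 38 members had 0. At least 10 UMIs were found in 3 of 9 and 13 of 65 members, with a highest cell of 79 and 781. In mouse 2, Col2a1 leaned to the Col11a2-positive cells. It was seen in 22 of 41 of them, at 1645 unscaled CPM, and in 5 of 24 Col11a2-negative cells, at 61.0. Of the 6 chondrocyte markers in the files, Acan, Matn1, Matn3 and Col10a1 were at 0 in the members of both mice, and Col9a1 was at 0 in mouse 1, so that the list summed to 705 and 1270 almost wholly through Col2a1.

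Markers of other cell types differed in level from list to list. The 11 blood genes summed to 258 and 122 unscaled CPM, with 6 and 9 detected, against 140818 and 174566 in blood cells. The 7 endothelial genes summed to 4.10 and 3.75, with Cldn5 and Tie1 at 0, and the 5 adipocyte genes to 4.10 and 0.937, with Cidec, Cfd and Lep at 0. Of the osteoclast genes, Ctsk gave 225 and 307 CPM, a level like the 211 and 210 of reticular cells, and Acp5 gave 24.6 and 8.90, against 1.86 and 1.83 in reticular and 9.41 and 5.35 in Col1a1-high Bglap-low cells, while Atp6v0d2, Dcstamp and Ocstamp were at 0. The 6 periosteal genes summed to 615 and 722, of which Gsn gave 615 and 711. That sum lay above the 81.4 and 124 of reticular cells and below the 1543 and 1461 of Col1a1-high Bglap-low cells. The 5 erythroid genes summed to 20.5 and 32.3, mostly Car2, against 8.27 and 26.5 in reticular cells. The 5 mural genes summed to 0 and 24.4 against 226 and 174.

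The sort gene itself was low in these cells. The eGFP feature held 2 UMIs in the 9 members of mouse 1, or 8.20 unscaled CPM (exact Poisson interval 0.993 to 29.6), and 612 UMIs in mouse 2, or 287 (264 to 310), of which 1 cell gave 314. Col1a1-high Bglap-low cells held 4819 and 4585, reticular cells 12520 and 12357, and blood cells 476 and 691. Barcodes of free RNA held 3668 and 3828. In CPM the members of both mice were below blood cells, which should not transcribe the gene. Of the blood cells, however, 65 of 423 and 62 of 402 had at least 3 UMIs of Adipoq and Lpl, genes of reticular cells. The blood cells are therefore not a clean background, and no order is read from this CPM.

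Because members were deeper than other cells, each cell was also thinned to 2000 UMIs. Then 0 of 9 members of mouse 1 had an eGFP UMI, which allows a share of up to 33.3%, and 18.5% of mouse 2 did (Wilson interval 10.9 to 29.6). Blood cells showed 13.7% and 17.7%. The share of mouse 2 joined kinds that were unlike, with 2 of 41 Col11a2-positive cells (4.88%, Wilson interval 1.35 to 16.1) and 10 of 24 Col11a2-negative cells (41.7%, 24.5 to 61.2). In unscaled CPM the kinds stood at 237 and 445. The Col11a2-positive cells had lower values than the blood cells of mouse 2 by both measures. The intervals of the shares overlapped, however (14.2 to 21.7 in blood cells), and 1 cell gave 314 of the 386 eGFP UMIs. The Col11a2-negative cells were above blood cells in the share and below them in CPM. No order against blood cells is therefore read for either kind. Col1a1-high Bglap-low cells showed 81.0% and 78.1% and reticular cells 98.0% and 97.9%. Unthinned, 22.2% and 64.6% of members had an eGFP UMI.

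tdTomato, the lineage mark, was less far from the other classes. Members held 164 and 122 unscaled CPM (exact Poisson intervals 117 to 223 and 107 to 138), Col1a1-high Bglap-low cells 302 and 439, reticular cells 764 and 1110 and blood cells 44.6 and 80.8. In mouse 2, 97 of 260 UMIs came from 1 cell. After thinning, 11.1% and 9.23% of members had a UMI, against 5.69% and 9.95% of blood cells. By this share a level above background could not be detected at this depth. In CPM members lay above blood cells in both mice, but below the 369 and 555 of free RNA. Without members with at least 3 Adipoq and Lpl UMIs, mouse 2 fell to 59.0 CPM, below its blood cells. The measures thus differed, and no order against background is read. The tdTomato feature includes a sequence element, WPRE, that another transgene feature also carries, which leaves its counts uncertain. iCreER had 0 UMIs in members.

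The 2 kinds both had reporter UMIs in mouse 2. eGFP was seen in 21 of 41 Col11a2-positive cells, with 386 UMIs of which 314 were in 1 cell, and in 21 of 24 Col11a2-negative cells, with 226. tdTomato gave 153 UMIs in 33 of 41 and 107 in 9 of 24, with 97 in 1 cell. The cell with 314 eGFP UMIs also held 153 Cxcl12 and 51 tdTomato UMIs.

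**Figure D3:**
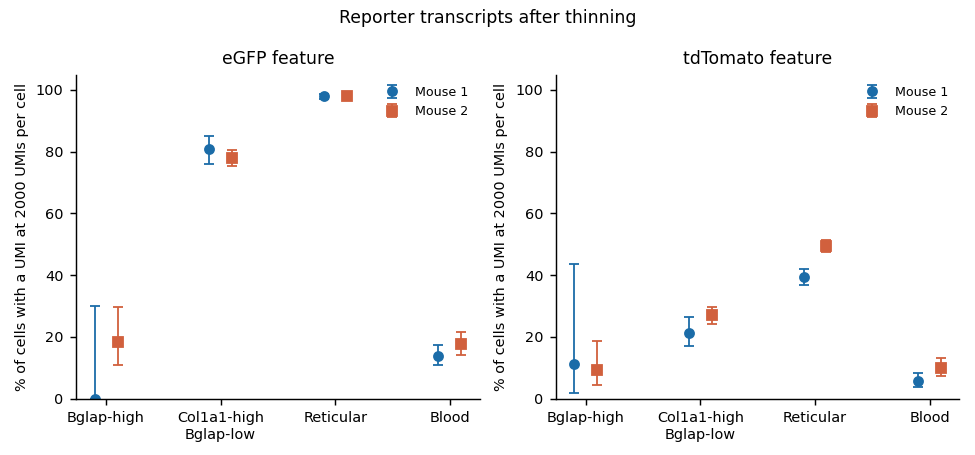
Share of cells, in percent, with at least 1 UMI of the eGFP feature (left) or the tdTomato feature (right) after each cell was thinned to 2000 UMIs, by cell class and mouse, with 95% Wilson intervals as bars. The Bglap-high cells, at 0 and 18.5% for eGFP (in mouse 2, 4.88% of Col11a2-positive and 41.7% of Col11a2-negative cells, not drawn apart), lie far below Col1a1-high Bglap-low and reticular cells.

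To ask which genes marked Bglap-high cells beyond those that chose them, UMIs were summed over the cells of each class in each mouse and fitted with edgeR's quasi-likelihood test. The comparison classes were 1309 Col1a1-high Bglap-low cells (296 and 1013), which met every rule but that on Bglap, and 3848 reticular cells (1421 and 2427), with low Col1a1 and at least 5 Adipoq and Lpl UMIs per 10000. Of the first class, 222 and 767 cells also had at least 3 Adipoq and Lpl UMIs. From here on, CPM are after TMM scaling, with the genes of the rule, Adipoq, Lpl and mitochondrial genes removed.

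In Bglap-high cells against Col1a1-high Bglap-low cells, 1525 of 12848 genes were higher (11.9%) and 1503 lower (11.7%), together 23.6%, at an adjusted p under 0.05. Against reticular cells, 2347 were higher (18.3%) and 2210 lower (17.2%), together 35.5%. The list counts below are to be read beside these shares. The median log2 difference over all genes was -0.11 and -0.09. The classes were set by Bglap in the same cells, so a gene that varies with Bglap differs between them. The p-values, from edgeR with Benjamini-Hochberg adjustment, set differences against the spread between 2 mice, estimated over the 6 sums of all 3 classes together. In Bglap-high cells this spread includes an unequal mix of kinds, with 1 of 9 and 24 of 65 members Col11a2-negative. Both comparisons share the Bglap-high sums. Without the Bglap-high cells of mouse 2, the counts were 1344 and 2081, and with every cell thinned to 2000 UMIs 423 and 871.

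The genes highest in Bglap-high cells held enzymes, transporters and matrix proteins. Ifitm5 stood at 1179 and 1109 CPM in Bglap-high cells of mice 1 and 2 against 36.2 and 36.1 in Col1a1-high Bglap-low cells, a log2 difference of 4.98 ± 0.24 (SE, n = 2 mice, edgeR adjusted p = 4.0e-05). The classes were far apart in both mice, and the 2 summed values of each class were nearly equal. Single Bglap-high cells were not alike, since in mouse 2 Ifitm5 was seen in 41 of 41 Col11a2-positive and 1 of 24 Col11a2-negative cells. Col11a2 stood at 4416 and 2903 against 55.1 and 88.2 (log2 difference 5.66 ± 0.48). Lipc, hepatic lipase, stood at 247 and 87.3 against 1.07 and 1.29 (6.82 ± 0.57). Gal, the neuropeptide galanin, stood at 90.3 and 92.4 against 1.60 and 1.04 (6.23 ± 0.31).

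Further genes among the 12 highest were Bcan (a proteoglycan), Cpz, Prss35 (a secreted protease-like protein), Hrc, Mamdc2, Slc13a5, RP23-457J22.1 and Cgref1. Prss35 stood at 318 and 376 CPM against 7.82 and 8.46, with the smallest adjusted p of the 12, 3.8e-06 by edgeR. Slc13a5 stood at 504 and 479 against 5.15 and 17.7, a log2 difference of 5.25 ± 0.44. In every one of the 12 genes the levels of the 2 classes did not overlap. The 12 were picked as the largest called differences with the same direction in both mice. The lack of overlap therefore follows largely from that choice and is not separate evidence.

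Against reticular cells, the highest list shared Lipc, Cpz, Prss35, Slc13a5, Cgref1 and Col11a2 with the former and added Creb3l3, Entpd3, Cthrc1, Rhbdl2, Mlip and Grrp1. Creb3l3, a membrane-bound transcription factor, stood at 109 and 59.3 CPM and had 0 UMIs in reticular cells, at least 726-fold and 627-fold above the floor of 3 UMIs a class. Col11a2 stood at 1.25 and 3.53 CPM in reticular cells (log2 difference 10.51 ± 0.59, edgeR adjusted p = 1.2e-05). Ifitm5 stood at 1.30 and 2.36 (9.23 ± 0.29).

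Among the genes lowest in Bglap-high cells, Mgp, the mineralization inhibitor matrix Gla protein, stood at 4.75 and 4.56 CPM against 1943 and 1287 in Col1a1-high Bglap-low cells (log2 difference -8.46 ± 0.45, edgeR adjusted p = 5.1e-05). Itgbl1, Il6, Scara5, Cd34 and Thy1 had 0 UMIs in all 74 Bglap-high cells. Their levels in Col1a1-high Bglap-low cells were 20.9 to 75.0 CPM, and the small sum of mouse 1, where 3 UMIs equal 14.3 CPM, limits the bound there. By mouse, Itgbl1, an integrin-like protein, was at least 5.26-fold and 21.8-fold lower, and Il6, the cytokine interleukin-6, at least 2.55-fold and 22.7-fold. Thy1, a stromal surface protein, was at least 2.06-fold and 12.2-fold lower. Fmo2 and Mfap5 completed the 8, with 0 UMIs in mouse 1 and 1 UMI in mouse 2. The calls of Itgbl1, Scara5, Thy1, Fmo2 and Mfap5 were lost without the Bglap-high cells of mouse 2.

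Itga8, Plac9b, Ifi44, Wnt11, Cbln2, Apbb1ip and Ptchd1 had 0 UMIs in Bglap-high cells and were, with Fmo2, the 8 lowest against reticular cells. Itga8, an integrin chain, stood at 42.6 and 33.3 CPM in reticular cells, so that Bglap-high cells were at least 2.99-fold and 19.4-fold lower. Mouse 1 again gave the looser bound for each of these 7 genes. The calls of Itga8, Wnt11, Cbln2 and Ptchd1 were lost without the Bglap-high cells of mouse 2.

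**Figure D4:**
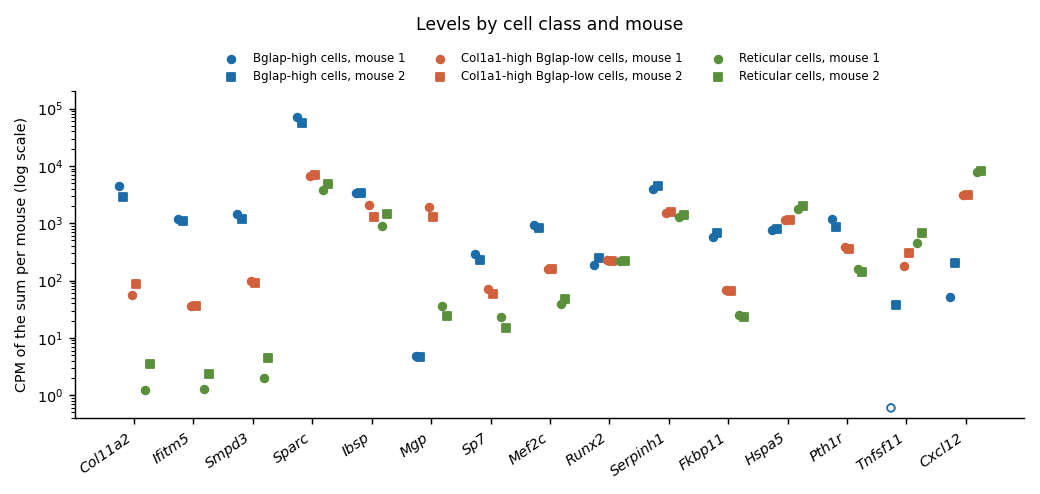
CPM after TMM scaling on a log axis for single genes in Bglap-high, Col1a1-high Bglap-low and reticular cells, with 1 point per mouse and open symbols near the bottom of the axis for 0 UMIs. Ifitm5 and Col11a2 fall in steps from Bglap-high to reticular cells, while Runx2 lies at 190 to 249 CPM in all classes.

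Collagen chains went both ways. Of 17 chains other than Col1a1, 8 were higher and 6 lower than in Col1a1-high Bglap-low cells. Col1a2 stood at 137569 and 108171 CPM against 8109 and 9445 (log2 difference 3.81 ± 0.27, edgeR adjusted p = 0.00012), in cells that had been chosen for its partner chain. Col11a1, the partner of Col11a2 in collagen XI, stood at 9193 and 6617 against 322 and 478 (4.30 ± 0.34). Col22a1 stood at 537 and 469 against 26.5 and 20.8 (4.41 ± 0.16). The higher chains were fibril-forming collagens I, V, XI and XXIV, with Col13a1 and Col22a1.

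The lower chains included Col8a1, a short-chain collagen, at 19.0 and 351 CPM against 1649 and 1152 (log2 difference -2.64 ± 0.69), and Col5a3, at 9.51 and 49.6 against 253 and 195 (-2.40 ± 0.32). Col27a1, at 0 and 24.0 against 93.5 and 86.9, and Col6a3, at 162 and 333 against 903 and 756, were also lower. The list's median log2 differences were -0.69 and 0.44. The call of Col8a1 was lost without the Col1a1-high Bglap-low cells of mouse 1. Against reticular cells, 8 chains were higher and 4 lower, or 7 lower without the Bglap-high cells of mouse 2. With Col11a2-positive cells alone, a choice made after seeing the data, the counts were 8 and 9 in the first comparison and 8 and 8 in the second.

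Collagen-modifying and folding genes were mostly higher: 17 of 27 were higher and 4 lower than in Col1a1-high Bglap-low cells, with a median log2 difference of 0.91 against -0.11 over all genes. Against reticular cells, 19 were higher and 4 lower, with a median of 1.17. P4ha2, a prolyl 4-hydroxylase subunit, stood at 147 and 196 CPM against 36.8 and 44.7 (log2 difference 2.15 ± 0.18, edgeR adjusted p = 0.00023). P3h4, part of a lysyl hydroxylase complex, stood at 314 and 326 against 84.4 and 80.3 (1.97 ± 0.12). Pcolce2, an enhancer of procollagen cleavage, stood at 33.3 and 17.1 against 0.355 and 1.10.

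Members of the same enzyme families moved in opposite directions. P3h2 was lower, at 4.75 and 3.99 CPM against 24.9 and 32.8, and so was P4ha3, at 0 and 5.13 against 35.5 and 26.9. Of the lysyl oxidases, which cross-link collagen, Loxl4 was higher, at 19.0 and 14.3 against 3.55 and 1.72, whereas Loxl1 was lower, at 38.0 and 188 against 666 and 640, and Loxl3 was lower, at 33.3 and 31.9 against 50.6 and 55.0. The calls of Loxl3, Loxl4, P3h2 and P4ha3 were lost without the Bglap-high cells of mouse 2, when 14 were higher and 1 lower, and that of Loxl3 also without the Col1a1-high Bglap-low cells of mouse 2. In thinned cells 4 were higher and 0 lower.

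Secretory pathway genes were mostly higher. Of 30 genes, 22 were higher and 1 lower than in Col1a1-high Bglap-low cells, with a median log2 difference of 1.16, and 22 were higher and 4 lower than in reticular cells, with a median of 1.29. Fkbp11, a prolyl isomerase of the endoplasmic reticulum (ER), stood at 575 and 663 CPM against 68.8 and 65.0 (log2 difference 3.23 ± 0.14, edgeR adjusted p = 4.0e-05). Ssr4, a translocon subunit, stood at 1421 and 1700 against 339 and 306 (2.28 ± 0.18). The ER retrieval receptors Kdelr3 and Kdelr2 were higher by 2.08 ± 0.13 and 2.01 ± 0.16 on the log2 scale.

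The lower gene was Pdia6, a disulfide isomerase, at 209 and 281 CPM against 470 and 406 (log2 difference -0.79 ± 0.19), a call lost without the Col1a1-high Bglap-low cells of either mouse. Hspa5, the ER chaperone BiP, stood at 770 and 782 against 1121 and 1121 (edgeR adjusted p = 0.058). Against 1748 and 1973 in reticular cells it was lower (-1.26, edgeR adjusted p = 0.00086). Without the Bglap-high cells of mouse 1 or 2, 3 and 4 were lower in the first comparison, and without the reticular cells of either mouse 2 were lower in the second. In thinned cells 8 of the 30 were higher and 0 lower in the first comparison, and 13 and 1 in the second.

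Of 15 tested mineralization genes, 7 were higher and 4 lower than in Col1a1-high Bglap-low cells, with a median log2 difference of 0.77. Sparc, osteonectin, stood at 70610 and 56236 CPM against 6791 and 6847 (3.22 ± 0.25, edgeR adjusted p = 0.00015). Smpd3 stood at 1421 and 1185 against 97.6 and 91.4 (3.78 ± 0.31). Phospho1, a phosphatase of matrix vesicles, was low in all classes, at 4.75 and 9.70 against 0.533 and 0.184. With Ifitm5 these were the 4 with the largest difference upward.

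The lower 4 were Mgp, Enpp1, Spp1 and Ank. Enpp1, which makes the mineral inhibitor pyrophosphate, stood at 19.0 and 10.8 CPM against 54.4 and 57.5 (log2 difference -2.24 ± 0.22), and Ank, which exports pyrophosphate, at 33.3 and 30.2 against 46.0 and 48.5 (-0.62 ± 0.18). Both calls were lost without the Bglap-high cells of mouse 2. Spp1 stood at 2015 and 2502 against 4789 and 4053 (log2 difference -0.96 ± 0.24, edgeR adjusted p = 0.021), and 1 cell gave most of the UMIs of mouse 2. The difference was -2.87 with Bglap and Bglap2 at 100 per 10000 and -2.84 with Col11a2-positive cells alone. With Bglap and Bglap2 under 10 per 10000 in the compared class it was -0.29 and the call was lost (edgeR adjusted p = 0.50), as it was in thinned cells (0.75). The calls of Spp1 and Ank were lost without the Col1a1-high Bglap-low cells of either mouse, when 2 genes were lower. Spp1 and Ank changed side between the comparisons, since against reticular cells, with 11 genes higher and 3 lower and a median of 2.36, both were among the higher genes.

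Ibsp stood at 3418 and 3327 CPM in Bglap-high cells, at 2049 and 1274 in Col1a1-high Bglap-low cells and at 899 and 1473 in reticular cells. Its log2 difference was 1.02 ± 0.30 (edgeR adjusted p = 0.043) in the first comparison and 1.51 ± 0.31 (edgeR adjusted p = 0.0062) in the second. This label marker was therefore far less specific than Col11a2 or Ifitm5. Its first call was lost without the Bglap-high cells of either mouse (edgeR adjusted p = 0.098 and 0.16) and without the Col1a1-high Bglap-low cells of mouse 2 (0.23), and both calls were lost in thinned cells (0.27 and 0.20).

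Of 14 transcription factors of the osteoblast lineage, 7 were higher and 0 lower than in Col1a1-high Bglap-low cells, and 10 were higher and 0 lower than in reticular cells, with median log2 differences of 1.15 and 2.53, and with the mouse as a block 1 was lower in each. Sp7 stood at 285 and 230 CPM against 71.1 and 58.1 and against 22.7 and 15.1 (log2 differences 1.94 ± 0.22 and 3.71 ± 0.23). Mef2c stood at 932 and 828 against 161 and 160 (2.44 ± 0.16), and Creb3l1, which drives secretory and collagen genes, at 604 and 556 against 140 and 131 (2.09 ± 0.14). Dlx3, a homeodomain factor, stood at 57.0 and 41.1 against 8.17 and 2.88, and Tcf7, a Wnt effector, at 52.3 and 42.8 against 9.42 and 8.70. The call of Dlx3 was lost without the Bglap-high cells of mouse 2.

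Runx2, the factor at the head of the lineage, stood at 190 and 249 CPM in Bglap-high cells, 224 and 220 in Col1a1-high Bglap-low cells and 216 and 218 in reticular cells. Its log2 differences were 0.04 ± 0.16 and 0.07 ± 0.16 (edgeR adjusted p = 0.89 and 0.75), and the values of the classes overlapped. The sign of both differences turned in thinned cells (-0.29 and -0.26).

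Wnt pathway genes went both ways, with 5 of 22 tested higher and 9 lower than in Col1a1-high Bglap-low cells and 10 higher and 9 lower than in reticular cells. Median log2 differences over all 22 were -0.49 and 0.09. They were -0.44 and 0.59 without Wnt16, which had 0 UMIs in Bglap-high cells. Wnt4 stood at 366 and 361 CPM against 94.5 and 137 (log2 difference 1.64 ± 0.21, edgeR adjusted p = 0.0011). The secreted inhibitors Frzb, at 66.5 and 65.0 against 7.11 and 12.7, and Notum, at 14.3 and 8.56 against 0 and 0.429, were higher, as was the intracellular inhibitor Nkd2, at 52.3 and 85.6 against 40.9 and 49.1.

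Sfrp4, also a secreted inhibitor, was lower, at 4.75 and 121 CPM against 971 and 906 (log2 difference -3.42 ± 0.54). The Wnt amplifiers Rspo3, at 0 and 29.7 against 288 and 215, and Rspo2, at 0 and 5.70 against 49.8 and 34.6, were lower, and so was the receptor Fzd4. Without the Bglap-high cells of mouse 2, 1 was higher and 4 lower, and 3 and 6 in the second comparison. The calls of Frzb, Notum, Nkd2, Rspo2 and Fzd4 were among those lost in the first, and that of Nkd2 was also lost without the Col1a1-high Bglap-low cells of mouse 1.

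Of 8 tested regulators of osteoclasts, 1 was higher and 5 lower than in Col1a1-high Bglap-low cells, with a median log2 difference of -1.84. Tnfsf11, the osteoclast-inducing ligand RANKL, stood at 0 and 37.1 CPM against 179 and 305 and against 456 and 666 in reticular cells (log2 differences -3.00 ± 0.52 and -4.21, edgeR adjusted p = 0.0047 and 0.00051). Csf1, the macrophage growth factor, stood at 14.3 and 71.9 against 323 and 268. Ccl2, a monocyte chemokine, was at 0 and 33.1 against 259 and 434, and Il34, which shares the Csf1 receptor, at 4.75 and 0 against 15.8 and 33.4. Sema4d, a semaphorin known from osteoclasts, was higher, at 85.6 and 64.5 against 5.33 and 7.54 (3.40 ± 0.40). Without the Bglap-high cells of mouse 2 the counts were 1 higher and 2 lower, and the calls of Ccl2 and Il34 were among those lost.

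Against reticular cells, 3 of these genes were higher and 5 lower, with a median of -2.19, and 1 and 3 without the Bglap-high cells of mouse 2. Of the junction genes, Cdh2, N-cadherin, was higher than in Col1a1-high Bglap-low cells, at 561 and 605 CPM against 293 and 262 (log2 difference 1.08 ± 0.15, edgeR adjusted p = 0.0019). Cdh11, the osteoblast cadherin, was lower, at 333 and 656 against 1003 and 1086, as were Gjc1 and Panx1. Among the 6 tested, 1 was higher and 3 lower, or 3 and 3 with the mouse as a block, and 3 and 3 against reticular cells, with median log2 differences of -0.19 and -0.10. Over all genes the first comparison had 11.9% higher and 11.7% lower, and 6 genes are too few to read a shift of the list. The calls of Cdh11 and Panx1 were lost without the Col1a1-high Bglap-low cells of either mouse, and that of Panx1 without the Bglap-high cells of mouse 2.

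Receptors for hormones and growth factors divided as well, with 2 of 16 higher and 5 lower than in Col1a1-high Bglap-low cells and 4 higher and 6 lower than in reticular cells. Over all genes, 11.9% were higher and 11.7% lower in the first comparison, and 18.3% and 17.2% in the second. The 2 higher receptors were thus near the share of all genes. Median log2 differences were -0.30 and -0.29. Pth1r stood at 1203 and 857 CPM against 379 and 356 and against 159 and 138 (log2 differences 1.47 ± 0.20 and 2.78 ± 0.21). Fgfr1 stood at 380 and 385 against 173 and 199 (1.04 ± 0.14). Both mice were above the other classes in these genes. Ghr, the growth hormone receptor, was lower, at 19.0 and 53.0 against 337 and 396 (-3.00 ± 0.30). The estrogen receptor Esr1, at 0 and 21.1 against 52.4 and 51.5, was lower, as was the thyroid hormone receptor Thra. Leaving out the Bglap-high cells of mouse 2 gave counts of 2 and 3, and 2 and 5, and the call of Thra was lost. Without the reticular cells of mouse 1, or the Col1a1-high Bglap-low cells of mouse 2, 2 were higher than in reticular cells.

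Of 7 tested osteocyte genes, 2 were higher than in Col1a1-high Bglap-low cells and 5 higher than in reticular cells, with median log2 differences of 0.28 and 1.68. The 2 were Irx5, a homeodomain factor, at 99.8 and 122 CPM against 46.2 and 68.9, and Tnfrsf11b, which encodes the RANKL decoy osteoprotegerin, at 4.75 and 31.9 against 7.11 and 4.90, which was higher in mouse 2 only. Dmp1 stood at 57.0 and 18.8 against 35.5 and 18.9 (log2 difference -0.08 ± 0.54, edgeR adjusted p = 0.95), and against 2.26 and 1.26 in reticular cells (3.88, edgeR adjusted p = 0.0023). Phex was called in neither comparison (0.28 and 0.14, edgeR adjusted p = 0.41 and 0.66), but with Col11a2-positive cells alone it was called higher in the first (0.59, edgeR adjusted p = 0.049; 0.45 and 0.096 in the second). Without the Bglap-high cells of mouse 2, 0 and 1 were called, the call of Irx5 was lost and Tnfrsf11b changed sign. Tnfrsf11b also lost its call without the Col1a1-high Bglap-low cells of mouse 2.

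Genes of preosteoblasts, the dividing precursors of osteoblasts, were lower more often than higher in Bglap-high than in Col1a1-high Bglap-low cells, with 1 of 14 higher (2 with the mouse as a block) and 6 lower and a median log2 difference of -0.77. Mmp16, a membrane protease, was higher, at 261 and 162 CPM against 38.7 and 25.9 (log2 difference 2.59 ± 0.28, edgeR adjusted p = 0.00057). Mmp13, a collagenase, was lower, at 181 and 370 against 1414 and 1039, as were Tnc, Ogn and Itgav. Postn stood at 99.8 and 306 against 288 and 203 (-0.03 ± 0.34, edgeR adjusted p = 0.97), and with Col11a2-positive cells alone it was called lower. The calls of Tnc and Ogn were lost without the Col1a1-high Bglap-low cells of mouse 1 and of mouse 2, in that order. In the second comparison 5 were higher and 5 lower, with a median of 0.17. Col11a2-positive cells alone gave 1 and 11 in the first comparison and 4 and 8 in the second. The counts without the Bglap-high cells of mouse 2 were 1 and 8, and 3 and 7. Without the Col1a1-high Bglap-low cells of mouse 1 the first comparison had 2 higher and 3 lower. The second had 8 higher without the Bglap-high cells of mouse 1, and 3 lower without the reticular cells of mouse 2.

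Reticular and niche genes were lower almost without exception, at 19 of 20 against Col1a1-high Bglap-low cells and 20 of 20 against reticular cells, with 0 higher in both and median log2 differences of -2.74 and -3.94. Cxcl12 stood at 52.3 and 201 CPM against 3087 and 3164 and against 7942 and 8221 (log2 differences -4.41 ± 0.45 and -5.78 ± 0.47, edgeR adjusted p = 0.00042 and 6.1e-05). Lepr, the leptin receptor, stood at 28.5 and 82.1 against 428 and 500 (-2.77 ± 0.33). Esm1 stood at 0 and 20.5 against 211 and 310, Il7 at 0 and 3.42 against 38.9 and 47.6 and Hp at 38.0 and 75.3 against 786 and 890. Reticular cells were chosen by Adipoq and Lpl, and Col1a1-high Bglap-low cells were the middle class for each of the genes just named.

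The transgenes went the same way in the fit. eGFP was lower than in Col1a1-high Bglap-low cells by a log2 difference of -4.32 ± 0.80 (edgeR adjusted p = 0.0062), and tdTomato by -1.06 ± 0.29 (edgeR adjusted p = 0.031). The tdTomato call was lost without the Bglap-high cells of mouse 2 and without the Col1a1-high Bglap-low cells of mouse 2.

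Some cell cycle genes were lower than in Col1a1-high Bglap-low cells. Of 15 tested, 0 were higher and 5 lower than in Col1a1-high Bglap-low cells, and 1 higher and 0 lower than in reticular cells, or 8 and 2 lower with the mouse as a block, with median log2 differences of -1.19 and -0.44. In mouse 1, 9 of the 15 were at 0 in Bglap-high cells, and in mouse 2 none was. The gene higher than in reticular cells was Ccnd1, cyclin D1, at 9.51 and 26.8 CPM against 3.31 and 3.28 (log2 difference 2.87 ± 0.33). Mki67, a mark of dividing cells, stood at 4.75 and 5.13 CPM against 80.7 and 40.9 (log2 difference -3.55 ± 0.74, edgeR adjusted p = 0.011), and Cdk1 at 0 and 9.13 against 34.3 and 23.0. The lower calls numbered 0 without the Bglap-high cells of mouse 2, 1 without those of mouse 1 and 8 without the Col1a1-high Bglap-low cells of mouse 2, and the calls of Mki67 (mouse 2 left out) and Cdk1 (either left out) were lost.

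Glycolytic genes showed no common direction, with 2 of 18 higher and 3 lower, and 4 and 3 against reticular cells, or 4 and 5 with the mouse as a block, and with medians of -0.05 and 0.04. Without the block these counts were near the shares of all genes, 11.9% higher and 11.7% lower, and 18.3% and 17.2%. Pdk1, a kinase that holds pyruvate back from the mitochondria, was higher, at 38.0 and 17.7 CPM against 4.44 and 5.39, and so was Pkm, at 238 and 287 against 154 and 159. The glucose transporter Slc2a1 was lower, at 0 and 5.70 against 13.7 and 13.9, as were Pfkl and Pfkp. Of the 5, Pdk1 alone kept its call without the Bglap-high cells of mouse 2, when the counts were 1 and 1, and 2 and 5 against reticular cells. Without the Bglap-high cells of mouse 1 the second comparison had 7 higher and 3 lower. Slc2a1 and Pfkl also lost their calls without the Col1a1-high Bglap-low cells of either mouse, and Pfkp without those of mouse 2.

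**Figure D5:**
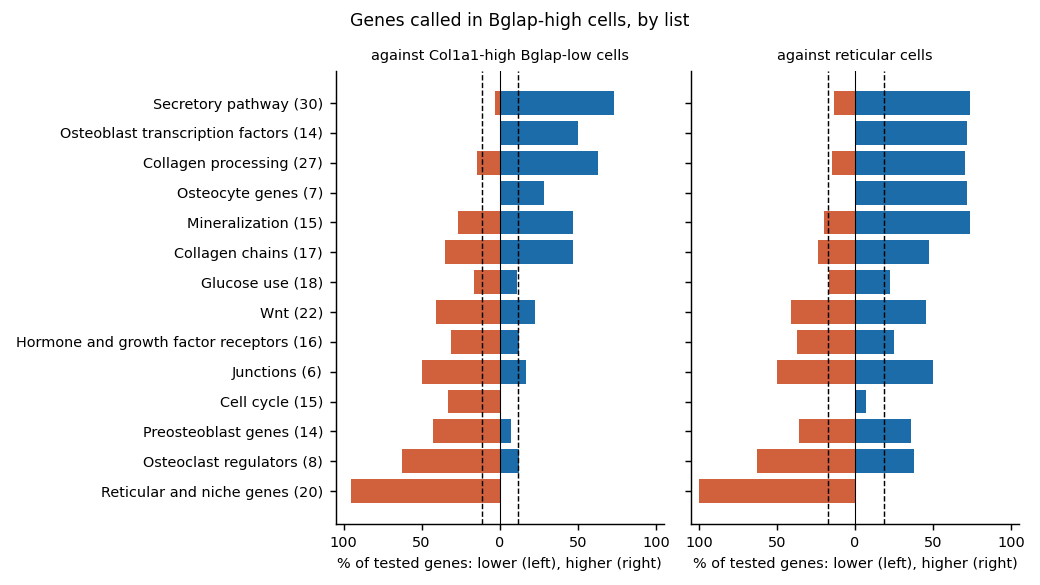
Percent of the tested genes of each list (number tested in brackets) called lower (left bars) or higher (right bars) in Bglap-high cells at an edgeR adjusted p under 0.05, with dashed lines at the share of all genes called in that direction. The secretory and collagen processing lists lean to higher, with 22 of 30 and 17 of 27 genes in the first comparison, and the reticular and niche list is lower in 19 of 20.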

How the data were processed

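Single-cell RNA libraries were made from 2 mice, 1 library each, with droplet chemistry. The authors deposited raw UMI counts per gene and barcode, made with Cell Ranger 3.0.0 on a mouse genome (mm10) with added transgene features, and analysed them with Seurat. No normalization had been applied to the deposited counts.

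A barcode was kept as a cell when it had 1000 genes or more and its mitochondrial UMIs did not exceed 15%. Members and gene lists were chosen with earlier results of these data known. Counts were summed per mouse and class, and the 6 sums were fitted together in edgeR 4.0.16 (R 4.3.3; TMM, filterByExpr, no block, Benjamini-Hochberg). The genes of the rule, their copies (Bglap3, Hba-a2, Hbb-bt), Adipoq, Lpl and mitochondrial genes, 25 in all, were removed first. Cells are not replicates, so n is 2 mice. Mice are paired by animal across classes; deviations from class means correlated at 0.0355 and 0.0295. Named genes were the 12 highest and 8 lowest called genes with at least 20 CPM in the higher class and 1 direction in both mice, up to 4 called genes of each list in each direction, and a set of markers. They also include genes of the division by Col11a2, which were taken after their values were seen.

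Intervals were Wilson (95%) or exact Poisson. Scrublet's automatic threshold marked 1 and 3 cells and was taken as not having worked, so the highest scores were used. The fit was tested on simulated data: 81 of 100 genes changed by 4-fold and 10 of 100 changed by 2-fold were recovered, over 12573 genes of the first comparison, with 4 unchanged genes called. The simulation gave all classes the same composition and all genes a fixed, assumed spread. It changed only genes above a minimum of expected UMIs. The real classes differed in composition and many genes had few UMIs in mouse 1, so these rates need not hold there. Alternatives were the mouse as a block, DESeq2 1.42.0, RLE scaling, no low-count filter, other thresholds and thinning. Of 28006 features, 27645 matched GENCODE vM21. Python 3.11.15, scanpy 1.11.5, Biopython 1.88 and matplotlib 3.10.9 were used.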

Additional observations from a re-analysis of the deposited data

How the results depend on the processing

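The 65 cells of mouse 2 carry most of the precision, since 1 UMI equals 4.75 CPM in the Bglap-high sum of mouse 1 and 0.570 in that of mouse 2. Thinning every cell to 2000 UMIs lowered the calls from 3028 to 423 against Col1a1-high Bglap-low cells and from 4557 to 871 against reticular cells, with 157 higher and 266 lower, and 334 higher and 537 lower. Of the genes named by the rule that were still tested in thinned cells, 43 of 93 and 37 of 106 kept their sign but lost their call. A further 4 and 3 changed sign. Leaving out 1 sum gave 1344 to 3370 and 2081 to 4957 calls, the lowest without the Bglap-high cells of mouse 2. The fit with the mouse as a replicate block, where the pairing is by animal, gave 3627 and 5023. It changed the call of none of the 103 and 114 genes named by the rule, and moved the list counts by over 1.5 times for junction, transcription factor, cell cycle, preosteoblast and glycolytic genes, as given beside them. DESeq2 gave 2835 and 4056, and RLE scaling 3198 and 4792. Without the low-count filter there were 3950 (1595 higher, 2355 lower) and 5459 (2371 and 3088).

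The mean share of members over mice was 0.873% and became 1.66% with Bglap and Bglap2 at 25 per 10000, and ran from 0.327 to 1.42 by mouse. Without thinning, the mean share with an eGFP UMI was 43.4% rather than 9.23% and that with a tdTomato UMI 65.6% rather than 10.2%. Without members with at least 3 Adipoq and Lpl UMIs, tdTomato moved from 143 to 111 CPM (in mouse 2 from 122 to 59.0) and eGFP from 147 to 54.1 (in mouse 2 from 287 to 100.1). By mouse the eGFP level ran from 8.20 to 287 CPM and its thinned share from 0 to 18.5%, and the tdTomato values from 122 to 164 and from 9.23% to 11.1%.

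Some log2 differences changed sign, called ones among them. Those called were Irx5 (1.00) and Tnfrsf11b (2.18) against Col1a1-high Bglap-low cells, and Aspn (4.77), Pdpn (5.62), Tnfrsf11b (2.31) and Vdr (0.84) against reticular cells. Against Col1a1-high Bglap-low cells, Dmp1 was 0.19 with the block, 0.85 with Bglap under 10 per 10000 in that class, 0.075 without members with Adipoq and Lpl UMIs and 0.31 in DESeq2. In thinned cells Irx5 was -0.83, Phex -0.90, Postn 0.91 and Runx2 -0.29. Postn was 0.45 with Bglap under 10 per 10000, and -1.27 with Col11a2-positive cells alone. Runx2 was -0.0031 with RLE scaling, -0.020 without the filter, -0.059 with Bglap at 100 per 10000 and -0.067 with Col11a2-positive cells alone. Against reticular cells, thinned values were -2.20 for Pdpn, -0.92 for Phex and -0.26 for Runx2. Runx2 was -0.013 without the filter, -0.026 at 100 per 10000 and -0.034 with Col11a2-positive cells alone, where Aspn was -8.46. Leaving out 1 sum or mouse gave, in the first comparison, -0.51 to 1.10 for Dmp1, -1.52 to 0.59 for Postn, -0.24 to 0.17 for Runx2 and -0.53 to 2.59 for Tnfrsf11b. In the second it gave -8.70 to 5.10 for Aspn, -6.08 to 5.91 for Pdpn, -0.17 to 0.80 for Phex, -0.20 to 0.19 for Runx2, -0.67 to 3.21 for Tnfrsf11b and -0.50 to 1.04 for Vdr. The cause of these changes was not tested. With Col11a2-positive cells alone, chosen after seeing the data, 4010 and 5049 genes were called.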

Other observations

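Signs of division were rare among the Bglap-high cells, whereas reticular genes were found in more of them in mouse 2. Mki67 was found as 1 UMI in 1 cell of mouse 1 and as 9 UMIs in 2 cells of mouse 2, 8 of them in 1 cell. Adipoq and Lpl, which mark reticular cells, reached 3 UMIs together in 0 members of mouse 1 and in 13 of mouse 2, of which 4 were Col11a2-positive and 9 Col11a2-negative. Dkk1, a secreted Wnt inhibitor, had 0 UMIs in mouse 1 and 51 in mouse 2. Of the Col1a1-high Bglap-low cells, 14 and 43 had at least 2 Col11a2 UMIs without reaching the Bglap threshold, or 4.73% and 4.24% of that class.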
